A study of Mus musculus with 6 samples.

Results

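The 10 genes described here encode enzymes, and 1 activating protein, with which myeloid cells make and inactivate prostaglandins, make leukotrienes and inactivate platelet-activating factor (PAF). They are Pla2g4a, Ptgs1, Ptgs2, Ptges, Hpgd, Alox5, Alox5ap, Lta4h, Ltc4s and Pla2g7, and they were chosen by name with earlier results of the same NaCl and control libraries known. All 10 were found by symbol among the 57010 genes of the count table and all 10 were among the 15903 genes tested. Since the choice was made with the difference between NaCl and control in view, that difference is given below as a description of these libraries and not as independent evidence about the pathway.

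RNA was sequenced from bone marrow-derived macrophages (BMDMs), which are macrophages grown from marrow with the growth factor M-CSF, to ask how excess salt changes their transcripts. The marrow came from 3 Cx3cr1GFP mice on the C57BL/6J background, whose GFP reporter sits in the Cx3cr1 locus, so that NaCl and control cells alike carried this allele. After 7 days with M-CSF, 1 culture of each mouse received 62 mM excess NaCl for 24 h and 1 served as the unstimulated control, which gave 3 libraries in each group that pair by mouse. Only adherent cells were sequenced, the handling of the control cultures is not described apart, and no culture with another osmolyte was among these libraries, so salt and osmolarity cannot be told apart.

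The libraries held between 4088065 counts, in NaCl replicate 3, and 20123570 counts, in control replicate 3. Levels are given as CPM, the count of a gene scaled to a common library size, with TMM scaling. The main fit was the quasi-likelihood test of edgeR without a term for the mouse, with p-values adjusted over all genes tested, and a second version, in which a term for each mouse (replicate block) takes up the differences between mice, stands beside it because it changed the call of several genes. The replicates are separate mice, so the p-values of the main fit set the difference against the spread between 3 mice. Those of the blocked fit set it against how much the NaCl-to-control difference varies among the 3 mice.

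Prostaglandins and leukotrienes are short-lived lipid mediators made from arachidonic acid, a fatty acid that phospholipases release from membranes. Cyclooxygenases turn it into prostaglandin H2, from which terminal synthases make the single prostaglandins, whereas 5-lipoxygenase, together with its activating protein in the nuclear membrane, turns it into leukotriene A4, the source of leukotriene B4 and of the cysteinyl leukotrienes. Macrophages can make both kinds of mediator and PAF, and they also hold enzymes that inactivate them.

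In control cells the transcripts of this pathway covered a wide range of levels, which were compared between genes per kilobase of exon because a longer transcript gives more reads. Alox5ap, the activating protein of 5-lipoxygenase, was the most abundant of the 10, with a control mean of 144 ± 4.56 CPM per kilobase (SD, n = 3), which lay above 98.3% of the genes tested. Hpgd, the enzyme that inactivates prostaglandins, followed with 50.7 ± 7.20 CPM per kilobase. Ptgs2, the inducible cyclooxygenase, was the lowest with 0.508 ± 0.168 CPM per kilobase, above 24.0% of the genes tested.

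The genes between them ran in the order Pla2g7, Lta4h, Pla2g4a, Ptgs1, Ltc4s, Ptges and Alox5, with control means from 18.3 down to 1.04 CPM per kilobase. The control libraries of neighbours overlapped for Pla2g7 and Lta4h, for Pla2g4a and Ptgs1 and for Ptges and Alox5, and the other neighbours in the order did not overlap. The transcript of 5-lipoxygenase was thus far less abundant than that of its activating protein, and the ratio of Alox5ap to Alox5 per kilobase was 162, 112 and 154 in the 3 control libraries. In NaCl cells this ratio was 45.0, 87.5 and 62.2, so that it was lower in every NaCl library than in any control library. Alox5ap itself overlapped between the groups, so the lower ratio largely restates the rise of Alox5 given below and is not a separate result.

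**Figure D1:**
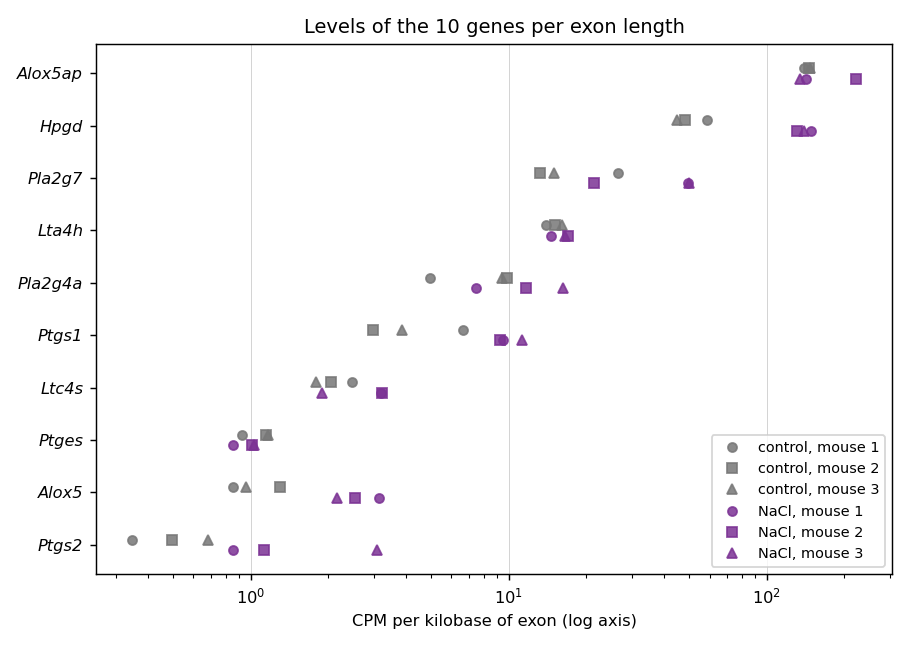
Level of each of the 10 genes in each of the 6 libraries, in CPM per kilobase of exon on a log axis, with control libraries in grey, NaCl libraries in purple and 1 marker shape for each mouse. In control libraries Alox5ap and Hpgd lie to the right of the other genes, and in NaCl libraries Hpgd (131 to 149 CPM per kilobase) reaches the range of Alox5ap (134 to 222 CPM per kilobase).

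In NaCl cells the lower end of the order was held by Ptges, the inducible prostaglandin E synthase, and Ptgs2. The NaCl libraries of Ptges, at 0.853, 1.01 and 1.04 CPM per kilobase, overlapped those of Ptgs2, at 0.854, 1.13 and 3.09 CPM per kilobase, and the higher mean of Ptgs2 rested on replicate 3. Alox5, at a mean of 2.62 ± 0.504 CPM per kilobase, lay above Ptges in every NaCl library. Hpgd rose to a mean of 140 CPM per kilobase, and its 3 NaCl libraries overlapped those of Alox5ap.

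Of the 10 genes, Hpgd and Alox5 were higher in NaCl cells past the threshold of the main fit, and 8 were not past it. None was lower in edgeR or in DESeq2. In the main fit 5 genes, all of them with higher values in NaCl cells, had an unadjusted p under 0.05. For that count no share over all genes was computed. When the mouse entered as a block, 6 genes passed as higher (Pla2g4a, Ptgs1, Ptgs2, Hpgd, Alox5 and Pla2g7), and DESeq2 without the block called the same genes except Pla2g4a, which makes 5. Across all genes tested the main fit called 0.478% higher and 0.176% lower, the block called 4.60% higher and 4.30% lower, and DESeq2 called 1.54% higher and 0.975% lower. Because the 10 genes were chosen with this contrast known, their counts are not read against these shares.

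The fitted log2 fold change was positive in 9 genes and negative in Ptges, with a range from -0.18 to 1.59 and a median of 0.84, where the median of all genes tested was -0.0065 (quartiles -0.24 and 0.24). Within mice, 8 genes were higher in the NaCl culture of all 3 mice, against 20.1% of all genes tested, and 1 gene, Ptges, was lower in all 3, against 23.4%. In 4 genes (Ptgs1, Ptgs2, Hpgd and Alox5) every NaCl library lay above every control library, which held for 8.92% of all genes tested, and in the other 6 the groups overlapped. No member had every NaCl library below every control library, which held for 10.1% of all genes tested. In bulk RNA, a change in the number of cells that carry a transcript and a change in the RNA per cell cannot be told apart.

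**Figure D2:**
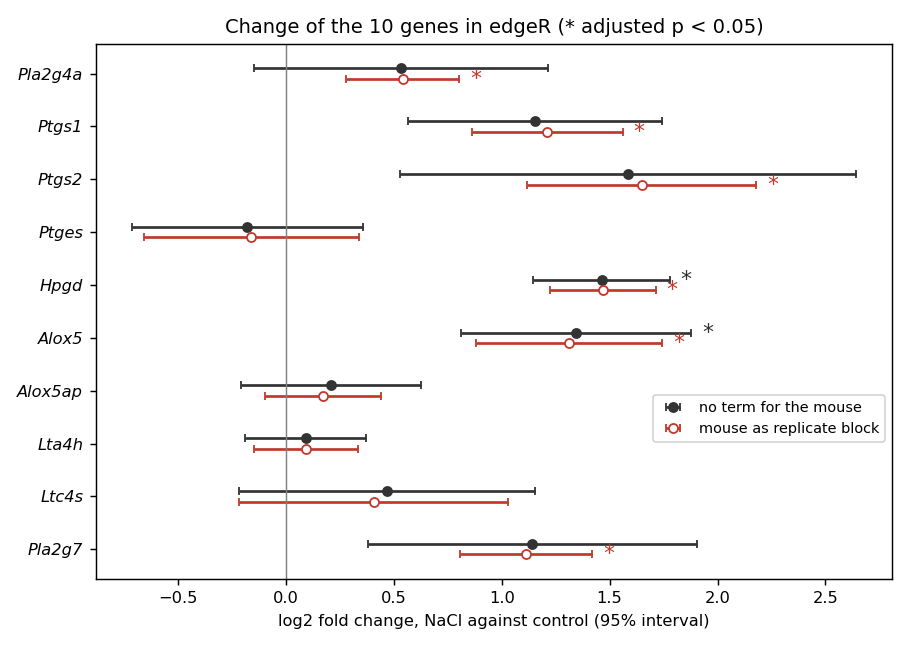
Log2 fold change of NaCl against control for each of the 10 genes with its 95% interval, from edgeR without a term for the mouse (black) and with a block for the mouse (red, open), and an asterisk where the adjusted p passed 0.05. The estimates of both fits lie close together, from -0.18 to 1.59 without the block. The intervals of all 10 genes are narrower with the block, by differing amounts.

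Pla2g4a encodes cytosolic phospholipase A2, which releases arachidonic acid from membranes and so supplies both branches. Its level was 31.6, 63.0 and 60.1 CPM in control replicates 1 to 3 and 47.7, 74.7 and 104 CPM in the NaCl replicates. The NaCl culture was higher in each mouse, but mouse 1 was the lowest in both groups, so the groups overlapped. The log2 fold change was 0.53 (SE 0.30, 95% interval -0.15 to 1.22), which did not pass the main fit of edgeR (adjusted p = 0.518), and with the replicate block it was 0.54 with an adjusted p of 0.00634. That call was lost when mouse 1 (adjusted p = 0.0779 in edgeR) or mouse 3 (adjusted p = 0.0824) was left out of the blocked fit.

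Ptgs1 encodes cyclooxygenase 1, the constitutive enzyme that makes prostaglandin H2. It was at 25.9, 11.6 and 15.0 CPM in the control libraries and at 36.8, 35.9 and 43.8 CPM in the NaCl libraries. The NaCl libraries lay close together and above all controls, and the control of mouse 1 was the highest of its group. The group means of 17.5 ± 7.48 and 38.8 ± 4.36 CPM (SD, n = 3) gave a log2 fold change of 1.15 (SE 0.26, 95% interval 0.57 to 1.74), or 2.23-fold, with an adjusted p of 0.0977 in edgeR. It passed with the replicate block (log2 fold change 1.21, adjusted p = 2.27e-05), in DESeq2 (adjusted p = 0.00277) and in the unblocked edgeR fit without control replicate 1 (log2 fold change 1.53, adjusted p = 0.0158).

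Ptgs2 encodes cyclooxygenase 2, the enzyme that inflammatory stimuli induce in macrophages. It was at 1.59, 2.26 and 3.13 CPM in control cells, from 14, 25 and 62 reads, and at 3.91, 5.17 and 14.1 CPM in NaCl cells, from 35, 57 and 59 reads. Every NaCl library was above every control library, and the highest NaCl value came from mouse 3, the shallowest library. The log2 fold change of 1.59 was the largest of the 10 genes and had the widest interval (SE 0.47, 95% interval 0.53 to 2.64), with an adjusted p of 0.200 in edgeR. The replicate block gave 1.65 with an adjusted p of 9.77e-05, and DESeq2 gave an adjusted p of 0.0199. Without NaCl replicate 3 the unblocked estimate was 0.92 (adjusted p = 0.365 in edgeR), and without mouse 3 the blocked one was 1.24 (adjusted p = 0.0112).

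Both cyclooxygenases therefore had higher values in each NaCl culture than in the control culture of the same mouse. Per kilobase, Ptgs1 exceeded Ptgs2 by a factor of 19.2, 6.04 and 5.67 in the control libraries and 11.1, 8.19 and 3.66 in the NaCl libraries. Cyclooxygenase 1 was thus the more abundant transcript of the pair in all 6 libraries, and the ratio overlapped between the groups.

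Ptges encodes the inducible microsomal prostaglandin E synthase, which often acts with cyclooxygenase 2. It was at 3.64, 4.53 and 4.59 CPM in control cells and at 3.35, 3.99 and 4.07 CPM in NaCl cells. It was slightly lower in the NaCl culture of each mouse, by less than the range within each group, so that the groups overlapped. The log2 fold change was -0.18 (SE 0.24, 95% interval -0.71 to 0.36, adjusted p = 0.810 in edgeR), and the interval holds falls as well as rises.

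Hpgd encodes 15-hydroxyprostaglandin dehydrogenase, the first enzyme of prostaglandin breakdown, which oxidises prostaglandin E2 to a form with little activity. It was at 98.9, 81.3 and 75.7 CPM in control cells and at 250.4, 220.1 and 234 CPM in NaCl cells, from at least 870 reads in each library. The groups were far apart and the spread within each was small, with means of 85.3 ± 12.1 and 235 ± 15.2 CPM (SD, n = 3). Of the 2 genes past the threshold of the main fit, Hpgd had the smaller standard error, with a log2 fold change of 1.46 (SE 0.14, 95% interval 1.15 to 1.78), or 2.76-fold, and an adjusted p of 0.00261 in edgeR. The log2 ratio of the NaCl to the control culture was 1.34 in mouse 1, 1.43 in mouse 2 and 1.63 in mouse 3. It passed the threshold in all 18 alternative fits, and leaving out single libraries gave log2 fold changes from 1.39 to 1.59 with adjusted p from 0.00306 to 0.0472 in edgeR.

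The estimates of Hpgd and Ptges thus differed in direction, since Hpgd rose while Ptges had a log2 fold change of -0.18. Ptges does not stand for all prostaglandin E synthases. Ptges2 and Ptges3 were more abundant in control cells, with means of 14.3 and 56.4 CPM. Their log2 fold changes were 0.44 (adjusted p = 0.455 in edgeR) and 0.067 (adjusted p = 0.945). Per kilobase the ratio of Hpgd to Ptges was 63.5, 41.9 and 38.5 in the control libraries and 174, 129 and 134 in the NaCl libraries, without overlap. As Ptges itself overlapped between the groups, this ratio largely restates the rise of Hpgd and is not a separate result.

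**Figure D3:**
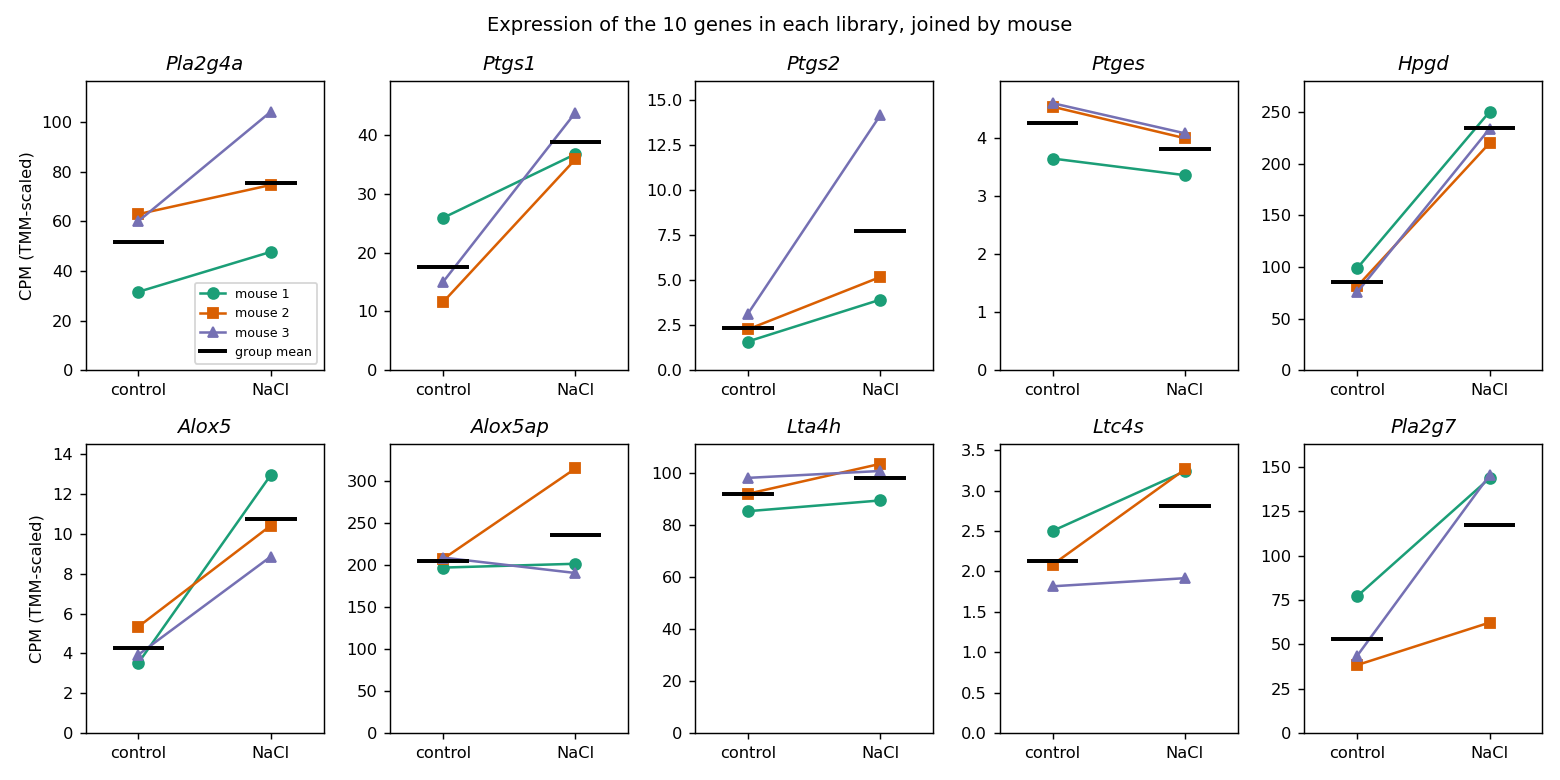
Level of each of the 10 genes in control and NaCl cells in CPM on a linear axis from 0 with its own scale for each gene, with 1 line and marker for each mouse and black bars at the group means. The lines of Hpgd run almost in parallel from 75.7 to 98.9 CPM up to 220.1 to 250.4 CPM, those of Ptges fall slightly in all 3 mice, and Alox5ap is higher in NaCl mainly in mouse 2.

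Alox5 encodes 5-lipoxygenase, the enzyme that makes leukotriene A4. It was at 3.52, 5.34 and 3.93 CPM in control cells and at 13.0, 10.4 and 8.86 CPM in NaCl cells, and behind these values stood between 31 and 116 reads. Every NaCl library was above every control library, with the largest difference in mouse 1. The means of 4.27 ± 0.955 and 10.8 ± 2.07 CPM (SD, n = 3) gave a log2 fold change of 1.34 (SE 0.24, 95% interval 0.81 to 1.88), or 2.54-fold, with an adjusted p of 0.0455 in edgeR. This call stood close to the threshold and was lost when any single library was left out (log2 fold change 1.19 to 1.54, adjusted p from 0.0634 to 0.220 in edgeR) and when all libraries were thinned to the depth of the smallest (1.20, adjusted p = 0.405). The replicate block gave 1.31 (adjusted p = 1.30e-04), and DESeq2 gave an adjusted p of 3.48e-04.

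Alox5ap encodes FLAP, the membrane protein that hands arachidonic acid to 5-lipoxygenase. It was at 197, 208 and 209 CPM in control cells and at 202, 315 and 191 CPM in NaCl cells. Only mouse 2 stood apart, and the groups overlapped. The log2 fold change of 0.21 (SE 0.19, 95% interval -0.21 to 0.63, adjusted p = 0.696 in edgeR) turned to -0.054 without NaCl replicate 2 and to -0.040 in the blocked fit without mouse 2.

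Lta4h encodes leukotriene A4 hydrolase, which makes leukotriene B4, a chemoattractant of neutrophils. It was at 85.2, 91.9 and 98.0 CPM in control cells and at 89.3, 103 and 101 CPM in NaCl cells. The NaCl culture was slightly higher in each mouse and the groups overlapped in part, with a log2 fold change of 0.091 (SE 0.13, adjusted p = 0.817 in edgeR). Its 95% interval, from -0.19 to 0.37, was the narrowest of the 10 genes.

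Ltc4s encodes leukotriene C4 synthase, which opens the cysteinyl branch by adding glutathione to leukotriene A4. It was at 2.50, 2.08 and 1.82 CPM in control cells and at 3.24, 3.26 and 1.92 CPM in NaCl cells, from between 8 and 36 reads. The NaCl library of mouse 3 lay among the controls. At this depth no difference was detectable (log2 fold change 0.47, SE 0.31, 95% interval -0.22 to 1.15, adjusted p = 0.583 in edgeR), and with every library thinned to the smallest the estimate was -0.30. The library kit keeps no strand, and 26.4% of the exon bases of Ltc4s overlap Gm26542 on the opposite strand, so reads of these genes cannot be told apart there.

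Within the leukotriene branch, then, 1 of 4 genes was past the threshold of edgeR with and without the replicate block, and it was the first enzyme of the branch. The ratio of Hpgd to Alox5 per kilobase overlapped between groups, at 68.5, 37.1 and 46.9 in control and 47.1, 51.5 and 64.4 in NaCl libraries.

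Pla2g7 encodes the secreted PAF acetylhydrolase, also known as lipoprotein-associated phospholipase A2, which inactivates PAF and oxidised phospholipids. It was at 77.2, 38.3 and 43.6 CPM in control cells and at 144, 62.3 and 145 CPM in NaCl cells. The NaCl culture was higher in each mouse, and the groups overlapped because the NaCl library of mouse 2 lay below the control of mouse 1. The log2 fold change was 1.14 (SE 0.34, 95% interval 0.38 to 1.90), or 2.21-fold, with an adjusted p of 0.200 in edgeR. It passed with the replicate block (1.11, adjusted p = 1.23e-05), which held without each mouse in turn, and in DESeq2 (adjusted p = 0.0233). An opposite-strand gene, 1700071M16Rik, overlaps 11.0% of its exon bases, and the same share was 13.3% for Alox5ap (Gm19719) and 3.81% for Ptgs1 (Gm43621).

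The promoters of the 4 genes whose groups did not overlap are shown so that they can be compared, each as the 250 bases before the RefSeq transcription start in GRCm38.p6, 5′ to 3′ on the strand of the gene. Of the 10 genes, 9 were matched in the promoter table used here, with 2 starts for Pla2g4a and hence 10 windows, and Alox5ap was not. The windows were searched on both strands for TGGAAA (the core of the NFAT5 site, a factor of the osmotic response), for TGACTCA and TGAGTCA (AP-1) and for GAGGAA (a core that ETS factors such as PU.1 bind). Capitals mark the matches, and all of those shown are GAGGAA, or TTCCTC where it lies on the other strand.
Ptgs1 (chr2:36230176-36230425, plus strand): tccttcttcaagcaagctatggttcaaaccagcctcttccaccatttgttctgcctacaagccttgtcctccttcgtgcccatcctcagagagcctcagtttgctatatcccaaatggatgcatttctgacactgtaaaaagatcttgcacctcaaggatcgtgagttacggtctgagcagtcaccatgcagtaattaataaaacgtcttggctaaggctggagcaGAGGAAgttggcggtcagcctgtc
Ptgs2 (chr1:150099781-150100030, plus strand): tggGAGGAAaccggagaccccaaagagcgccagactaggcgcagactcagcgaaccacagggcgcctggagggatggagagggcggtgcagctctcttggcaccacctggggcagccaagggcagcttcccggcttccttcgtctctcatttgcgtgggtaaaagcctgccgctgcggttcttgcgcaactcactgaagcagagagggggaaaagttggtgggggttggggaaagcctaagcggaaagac
Hpgd (chr8:56294302-56294551, plus strand): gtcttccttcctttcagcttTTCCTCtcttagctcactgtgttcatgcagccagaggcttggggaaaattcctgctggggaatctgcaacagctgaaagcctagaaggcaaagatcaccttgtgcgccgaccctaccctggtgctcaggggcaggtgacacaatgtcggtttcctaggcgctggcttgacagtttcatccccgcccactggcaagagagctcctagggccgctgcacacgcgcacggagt
Alox5 (chr6:116461179-116461428, minus strand): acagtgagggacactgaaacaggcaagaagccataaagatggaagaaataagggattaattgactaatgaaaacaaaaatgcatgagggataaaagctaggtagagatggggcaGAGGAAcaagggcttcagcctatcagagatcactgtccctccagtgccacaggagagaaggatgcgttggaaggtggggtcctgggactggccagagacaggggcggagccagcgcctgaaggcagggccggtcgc

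GAGGAA was found in 6 of the 10 windows (Ptgs1, Ptgs2, Ptges, Hpgd, Alox5 and Lta4h), while 23.3% of all 32851 promoter windows of the same length held it. Among the 10 windows, TGGAAA occurred only in that of Ltc4s (18.6% of all windows) and the AP-1 letters in none (4.46% of all windows). In Ptgs1 the match was nearest to the start, at -24 to -19, in Alox5 it lay at -136 to -131, in Hpgd at -230 to -225 and in Ptgs2 at -247 to -242, so that its position was not shared. Ptges and Lta4h hold these letters too and had log2 fold changes of -0.18 and 0.091. Such matches are a description of letters in these windows and not of binding.

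The other genes of the pathway were taken from a list of 82 genes grouped by role, of which 62 had enough counts to be tested and 20 did not. None of the 62 was past the threshold of the main fit of edgeR, which called 0.478% of all genes tested higher and 0.176% lower. In that fit 10 had an unadjusted p under 0.05, for which no share over all genes was computed. The median log2 fold change of all 62 was -0.030. With the replicate block 6 were higher (Daglb, Mboat7, Mboat1, Akr1b3, Mgst2 and Pafah1b3) and 5 lower (Mgll, Tbxas1, Mgst1, Ggt5 and Cyp4f13), and DESeq2 called Daglb, Akr1b3 and Mgst2 higher and none lower. Of all genes tested, the block called 4.60% higher and 4.30% lower, and DESeq2 called 1.54% higher and 0.975% lower. The test of a difference between these genes and the 10 members was not made.

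Around the release of arachidonic acid, 1 of 11 genes was higher and 1 lower with the block, and around its return to membranes 2 of 10 were higher. Since the block called 4.60% of all genes tested higher and 4.30% lower, counts this small are not read as a trait of a role. Mboat7, which returns arachidonic acid to phosphatidylinositol, was at 68.3, 60.6 and 64.6 CPM in control and 90.3, 82.4 and 86.0 CPM in NaCl cells, without overlap (log2 fold change 0.42, adjusted p = 0.0219 with the block in edgeR). Mgll, the monoacylglycerol lipase, had a log2 fold change of -0.68 with the block (adjusted p = 0.0391 in edgeR), and Daglb, a diacylglycerol lipase, one of 0.51 (adjusted p = 0.00598). In Daglb 24.1% of the exon bases overlap Rac1 on the opposite strand.

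Among the 7 other prostanoid synthases tested, 2 had every NaCl library below every control library, against 10.1% of all genes tested. In 2 others every NaCl library lay above, against 8.92%. The 2 lower genes were the abundant pair that makes thromboxane and prostaglandin D2, and the 2 higher ones were Akr1b3 and Cbr1. These counts are not read as a trait of the role. Cbr1 was at 30.6, 32.5 and 25.8 CPM in control and at 36.2, 38.3 and 34.0 CPM in NaCl cells. Tbxas1, thromboxane synthase, was at 230.6, 313 and 302 CPM in control and at 170.1, 212 and 206 CPM in NaCl cells (log2 fold change -0.52, adjusted p = 0.200 in edgeR; with the block -0.52, adjusted p = 0.00403). Hpgds, the hematopoietic prostaglandin D synthase, was at 286, 244 and 235 CPM in control and at 232, 177 and 223 CPM in NaCl cells (log2 fold change -0.28 with and without the block, adjusted p = 0.149 with it in edgeR). Akr1b3, an aldose reductase that can make prostaglandin F2 alpha and that reduces glucose to the osmolyte sorbitol, was at 98.2, 103 and 102 CPM in control and at 116, 259 and 159 CPM in NaCl cells (log2 fold change 0.82, adjusted p = 0.203 in edgeR; with the block 0.74, adjusted p = 0.00135). Identical sequence in other genes covers 12.1% of its read-length windows.

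The enzymes that act after Hpgd were not past the threshold in either fit of edgeR. Ptgr1, which reduces the product of Hpgd, was at 53.0, 55.2 and 51.4 CPM in control and 56.7, 53.8 and 45.3 CPM in NaCl cells (log2 fold change -0.029, 95% interval -0.33 to 0.27, adjusted p = 0.960 in edgeR). All 4 tested genes of prostaglandin inactivation and transport (Ptgr1, Ptgr2, Ptgr3 and Abcc4) had log2 fold changes between -0.082 and -0.029. Slco2a1, the carrier that takes prostaglandins up ahead of Hpgd, had 1 read over the 6 libraries and was not tested.

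Downstream of leukotriene A4, Mgst2, which can also make leukotriene C4, was at 5.34, 8.33 and 7.11 CPM in control and at 10.6, 12.3 and 15.1 CPM in NaCl cells, without overlap (log2 fold change 0.85, adjusted p = 0.152 in edgeR; with the block 0.86, adjusted p = 0.00270). Ggt5, which converts leukotriene C4 to D4, had a log2 fold change of -1.37 with the block (adjusted p = 0.0133 in edgeR), from levels of at most 3.87 CPM. Mgst1 and Cyp4f13 were also lower with the block, with log2 fold changes of -0.44 (adjusted p = 0.0183 in edgeR) and -0.49 (adjusted p = 0.0404). Alox15, the 12/15-lipoxygenase, was below 1 CPM in every library and was not called in either fit.

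No receptor of these mediators passed the threshold with or without the block in edgeR, among 5 prostanoid receptors and 4 leukotriene and PAF receptors tested. Ptger4, a prostaglandin E2 receptor, was at 32.5, 36.0 and 51.3 CPM in control and at 40.2, 43.7 and 52.0 CPM in NaCl cells, with overlap. Ptafr, the PAF receptor, was at 305, 179 and 181 CPM in control and 249, 149.9 and 143 CPM in NaCl cells, lower in each mouse (log2 fold change -0.29 with the block, adjusted p = 0.113 in edgeR). Of the intracellular PAF acetylhydrolase subunits, Pafah1b3 was higher with the block (log2 fold change 0.50, adjusted p = 0.0281 in edgeR), while Pafah1b1 had a log2 fold change of -0.16 (adjusted p = 0.475 with the block).

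**Figure D4:**
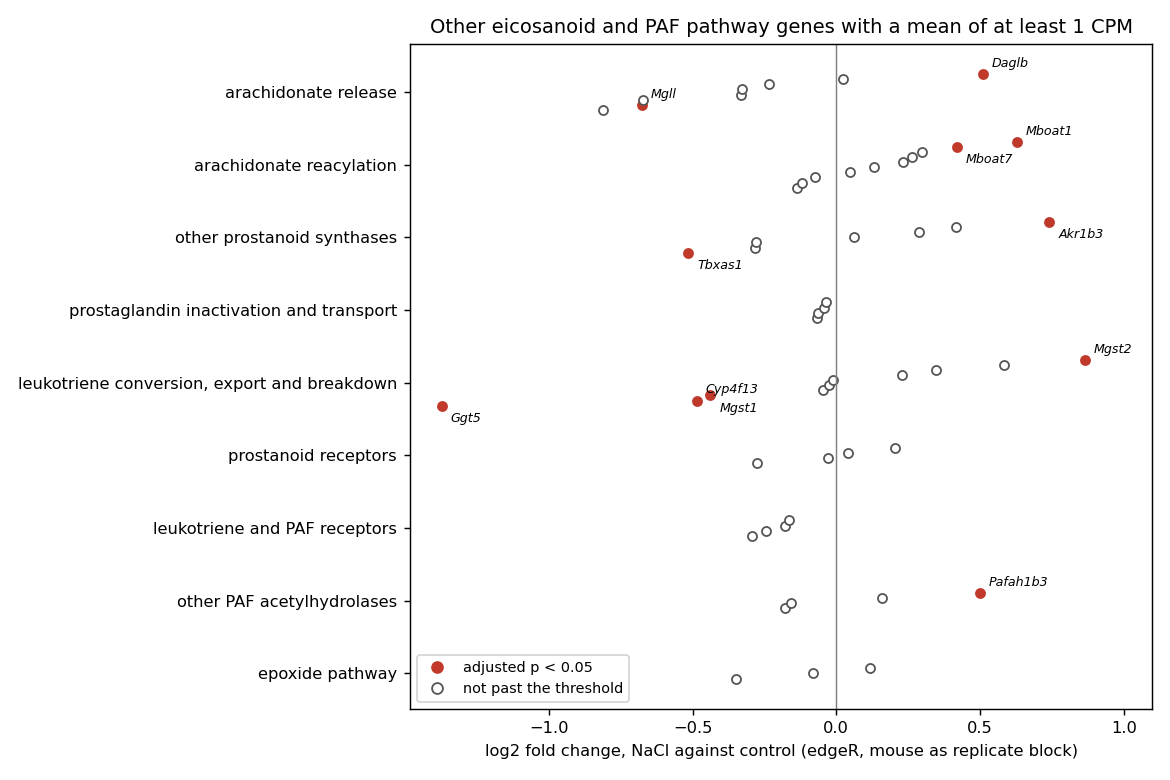
Log2 fold change of NaCl against control, from edgeR with a block for the mouse, for the 54 other pathway genes with a mean of at least 1 CPM, with 1 row for each role, filled points for an adjusted p under 0.05 and open points for the rest. Filled points lie on both sides of 0, with 6 to the right and 5 to the left, and the rows of receptors and of prostaglandin inactivation hold none.

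Marker genes were read for other cells that express this pathway. Of the 10 markers of mast cells and basophils, 5 (Fcer1a, Tpsb2, Tpsab1, Cma1 and Mcpt4) had at most 3 reads in every library. The other 5 were detected in every library, and none was called in either edgeR fit. Gata2 had 29 to 117 reads, Prss34 6 to 31, Cpa3 1 to 27, Mcpt8 1 to 9 and Ms4a2 2 to 8. The mean of Gata2 was 4.03 CPM in control and 5.82 CPM in NaCl cells. The summed level of the 10 markers was 6.37 to 9.48 CPM in control and 7.61 to 12.5 CPM in NaCl cells. The 11 neutrophil markers summed to 270 to 569 CPM in control and 294 to 411 CPM in NaCl cells, with 2 lower (Ngp and Mpo) and none higher with the block, and the 6 eosinophil markers to 47.3 to 83.0 and 53.0 to 93.4 CPM, with 1 higher and 1 lower. The 6 monocyte markers summed to 162 to 263 and 143 to 329 CPM, with Ifitm6 higher in both edgeR fits.

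The summed level of 6 megakaryocyte and platelet markers was 5.09 to 6.98 and 2.64 to 9.61 CPM, of 8 dendritic cell markers 4.49 to 5.46 and 2.90 to 4.25 CPM, of 8 stromal markers 1.27 to 4.89 and 0.671 to 4.07 CPM and of 8 B and T cell markers 5.40 to 9.89 and 3.17 to 10.5 CPM, with no gene called in these lists. The 8 macrophage markers were all expressed and summed to 15234 to 16531 CPM in control and 23911 to 31603 CPM in NaCl cells, with Lyz2 and Cd14 higher in the main fit. The macrophage sum thus moved in the same direction as Hpgd and Alox5 and did not overlap between the groups, and its part in their difference was not tested.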

How the data were processed

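Poly(A) RNA of BMDMs from 3 mice was sequenced as 75 bp single-end reads from an unstranded TruSeq kit. Per the submitters' processing notes, reads were trimmed with fastp 0.20.0 and aligned with STAR 2.7.10b. The authors deposited unscaled counts for each gene, and separately the same counts divided by DESeq2 (1.40.2) size factors as a normalized signal, which was used here only for gene symbols. The methods name mm10 with GENCODE vM32, an annotation of another build, so genes are placed by chromosome only. Library totals ranged from 4088065 to 20123570 counts, and a gene with few reads has a correspondingly wide interval.

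The test, for genes whose counts over the 6 libraries summed to 10 or more, was that of edgeR 4.0.16 in R 4.3.3 (TMM, glmQLFit, glmQLFTest, NaCl against control), with Benjamini-Hochberg adjustment over 15903 genes and a threshold of 0.05. The fit was tested on simulated data before use. The labels name the same mouse for control and NaCl libraries of equal number. Across genes the deviations of such libraries from the mean of their group gave r = 0.43, 0.15 and 0.22. Other pairs lay between -0.35 and 0.12. The 0.15 of mouse 2 was close to the 0.12 of control replicate 3 with NaCl replicate 2, so the pairing rests on the labels. Alternatives were the mouse as a replicate block, DESeq2 1.42.0 with and without it, limma-voom (limma 3.58.1), other scalings and count filters, thinning to 4088065 counts, each library left out, and, added after seeing the data, the blocked fit without each mouse. Exon lengths and overlaps came from GENCODE M21, and identical windows of 75 bases were searched in its transcripts.

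The members, the list of 82 other pathway genes by role and 9 lists of cell type markers were chosen with earlier results of these data known. The text names all members, every other pathway gene past the threshold in either edgeR fit with a mean of at least 1 CPM, and in each role the gene with the highest control level per kilobase. Ptges2 and Ptges3, like some genes given with their role or by their reads, stand outside this rule.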

Additional observations from a re-analysis of the deposited data

How the results depend on the processing

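The count of members higher in NaCl cells, 2 in the main fit, was 6 with the mouse as a replicate block, 5 in DESeq2, 6 in DESeq2 with the block, 5 with a minimum total count of 1 and 1 with all libraries thinned to the smallest; it was 2 with limma-voom, filterByExpr, scaling by library totals or median-ratio size factors. Leaving out single libraries gave 1 to 2, and the block without 1 mouse gave 5 to 6. The 2 called without control replicate 1 were Hpgd and Ptgs1, whereas Alox5 was not. No member was lower in any of the 18 alternatives. For the other pathway genes, the counts of 0 higher and 0 lower became 6 and 5 with the replicate block, 3 and 0 in DESeq2, 4 and 2 in DESeq2 with the block, and 2 and 1 with a minimum total count of 1. Leaving out 1 library gave 0 to 1 higher, and the block without 1 mouse gave 2 to 7 higher and 1 to 4 lower. Over the named genes, 455 log2 fold changes under alternatives kept their direction and side of the threshold, 69 moved past it, 7 lost it (all of them Alox5) and 8 changed sign. The 8 were all short of the threshold: leaving out single libraries gave -0.054 to 0.34 for Alox5ap (below 0 without NaCl replicate 2), -0.091 to 0.056 for Ptgr1 (above 0 without control replicate 2, at 0.0062, or NaCl replicate 3), -0.59 to 0.014 for Ptafr (above 0 without control replicate 1) and -0.14 to 0.30 for Ephx1 (below 0 without NaCl replicate 1), the block gave -0.040 for Alox5ap without mouse 2 and 0.038 for Ptgr1 without mouse 3, and thinning gave -0.30 for Ltc4s. The causes of these changes were not tested. Depth limits Ptgs2, Ltc4s, Ptges and Alox5, which had fewer than 120 reads in every library.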

Other observations

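Genes of the pathway that these cells barely expressed were described by their reads alone. Ptgds, the lipocalin-type prostaglandin D synthase, Ptgdr and Ptgfr, the receptors of prostaglandins D2 and F2 alpha, and Oxgr1 had no read in any of the 6 libraries. Ptgis, prostacyclin synthase, had 4 reads in all, Tbxa2r, the thromboxane receptor, had 2, and Ltb4r2, the low-affinity leukotriene B4 receptor, had 5.

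The genes of highest control level in the remaining roles were not past the threshold in either fit of edgeR. Pla2g15, the lysosomal phospholipase A2, was at 175, 154 and 143 CPM in control and 160.5, 133 and 109.7 CPM in NaCl cells, with overlap, and lower in each mouse. Acsl5, which activates fatty acids with coenzyme A, was at 123, 143 and 152 CPM in control and 160.5, 164 and 177 CPM in NaCl cells, without overlap (log2 fold change 0.26, adjusted p = 0.170 with the replicate block in edgeR). Ephx1, an epoxide hydrolase, was at 70.0, 55.9 and 50.9 CPM in control and 89.2, 55.9 and 50.3 CPM in NaCl cells.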
